A study of Mus musculus with 5 samples.

Results

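The venous endothelial cells of aged mouse tibialis anterior muscle were taken as barcodes in which transcripts of several venous genes were found together. Barcodes entered with 200 or more genes detected and no more than 10% of their UMIs from mitochondrial genes (a UMI, or unique molecular identifier, stands for 1 captured RNA molecule). It needed a UMI of at least 2 of the 4 endothelial genes Pecam1, Cdh5, Tie1 and Egfl7, and of at least 3 of the 6 venous genes Vwf, Selp, Ackr1, Lrg1, Vcam1 and Nr2f2. At most 1 of the capillary genes Cd300lg, Gpihbp1, Timp4 and Car4 and at most 1 of the arterial genes Sema3g, Gja5, Gkn3, Stmn2 and Bmx could be detected, and Pdgfra, Ptprc, Abcc9 and Prox1 could hold at most 1 UMI in total. This left 165 venous cells of 50460 barcodes within the quality limits, which is 1.004% of the 16442 endothelial barcodes (95% Wilson interval 0.8622 to 1.168, counting error only).

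The tissue came from female C57BL/6 mice aged 26 months, and each library held 1 mouse according to the series text. The 2 frail mice, called cases in the labels, had a frailty index of at least 0.18, and the 3 control mice were below it. No treatment and no altered gene is named for either group, and the series title concerns the stress cytokine GDF15, its receptor GFRAL and sarcopenia, or muscle wasting in old age. The labels describe both whole cells released by digestion and sorted nuclei, so "cell" here means a barcode. The values below are given in the order frail 1, frail 2, control 1, control 2, control 3 unless stated otherwise.

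Venules collect blood from the capillaries and are the main site at which leukocytes leave the blood. Their endothelium stores von Willebrand factor and P-selectin in Weibel-Palade bodies, carries the atypical chemokine receptor ACKR1, and responds to inflammatory cytokines with E-selectin, ICAM-1 and VCAM-1, which slow and hold passing leukocytes. Venous identity is kept by the transcription factor encoded by Nr2f2, which restrains the Notch programme of arteries, whereas muscle capillaries are specialised for the uptake of fatty acids.

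The libraries held 68170531 to 90942121 UMIs, and the venous cells 440510, 153739, 248407, 66404 and 316641 UMIs in 47, 33, 37, 12 and 36 cells. Median depth per venous cell was 9576, 3696, 3726, 5948.5 and 7018 UMIs, against 3413.5 to 3893 in capillary cells. Frail 2 and control 1 had the shallowest venous cells, and control 2 the fewest. The 5 deepest cells held 23.8% to 62.16% of a library's venous UMIs, with the highest share in control 2. A deeper cell shows 3 venous genes more easily, but it also exceeds the limits on capillary, arterial and other excluded genes more easily. After every barcode was thinned to 2000 UMIs and shallower ones were left out, the rule gave 211 cells instead of 165. These were 62, 47, 41, 18 and 43 cells, more in each library than without thinning. The part of depth in the comparisons between cell types was not tested. No barcode sequence of a venous cell recurred among the venous cells of another library, and 2 of the 165 were among the doublets called in all barcodes.

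The 6 genes that chose the cells are described here without a test. Vwf, the platelet-binding glycoprotein of Weibel-Palade bodies, was found in 151 of the 165 cells and stood at 1255, 1834, 1095, 1099 and 985.3 CPM, the usual depth-scaled count, which sets a gene's UMIs against all UMIs of the venous cells of that library. Lrg1, a secreted leucine-rich glycoprotein of inflamed and venous endothelium, was found in 145 cells and stood at 1714, 1457, 1171, 2379 and 1469 CPM. Selp, which encodes P-selectin, was found in 119 cells at 356.4, 722, 1304, 1009 and 612.7 CPM. Vwf was highest in frail 2, Lrg1 in control 2 and Selp in control 1, and the frail and control libraries overlapped for all 3 genes. Vcam1, the adhesion molecule bound by the leukocyte integrin VLA-4, was found in 122 cells and ranged from 256.5 to 780.5 CPM. Nr2f2 was found in 121 cells with 225.9 to 520.4 CPM, and Ackr1 in 100 cells with 254.3 to 494.3 CPM. Vwf and Lrg1 were detected together in 135 cells, Selp and Lrg1 in 110, and Ackr1 and Selp in 76.

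Not all 6 genes marked the cells equally well against other cells of the tissue. In 8448 barcodes with fibro-adipogenic transcripts and no endothelial gate gene, at a median of 7702 UMIs against 6892 in the venous cells, a UMI was present in 3.03% for Vwf, 0.438% for Selp and 1.62% for Lrg1. The shares there were 21.7% for Ackr1, 13.8% for Vcam1 and 23.7% for Nr2f2. Vwf, Selp and Lrg1 were thus rare in these fibro-adipogenic barcodes, and the other 3 genes were not. Shares in mural, immune, Schwann and muscle cells were not measured. Among the arterial genes Stmn2 was found in 45.5% of venous cells, 16.7% of capillary and 93.3% of arterial cells. Gja5 and Gkn3 of the arterial and Car4 of the capillary genes had 0 UMIs in the venous cells. This allows up to 2.448 CPM, taking 3 counts over all venous UMIs as the limit. The rules limit or require these genes, so their values are partly set by the choice of cells and are given as a description.

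**Figure D1:**
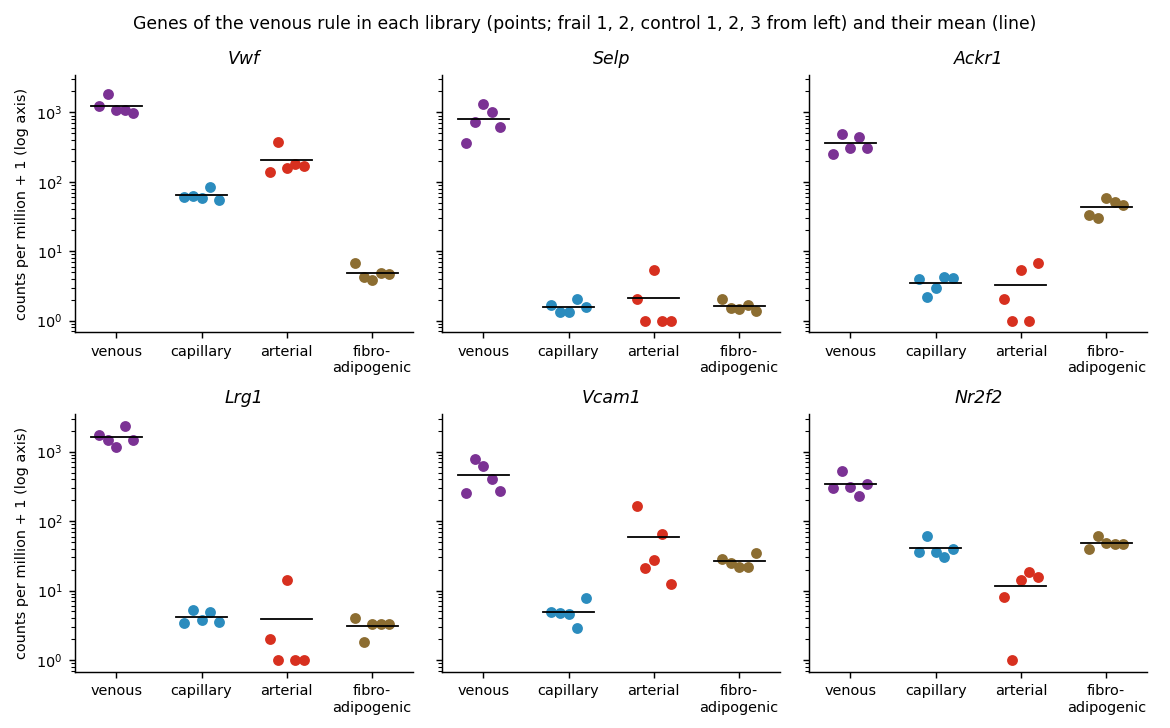
CPM plus 1 (log axis) of the 6 genes used by the venous rule, in venous, capillary, arterial and fibro-adipogenic cells; points are the 5 libraries in the order frail 1, 2, control 1, 2, 3 and lines are means. Vwf, Selp and Lrg1 lie low in fibro-adipogenic cells, while Ackr1, Vcam1 and Nr2f2 are seen there too.

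The venous label held best for cells with 4 or more of the 6 genes. With 3 genes, the lowest number admitted, there were 42 cells (9, 9, 9, 3 and 12 per library). With 4 genes there were 33 and with 5 or 6 there were 90. Pooled over libraries, Plvap, which forms the diaphragms of fenestrae and caveolae in venular endothelium and was not used to choose cells, stood at 376.6 CPM in cells with 3 venous genes, 1986 CPM with 4 and 2240 CPM with 5 or 6. The 104 cells just outside the rule, with 2 venous genes, had 52.2 CPM. Cytl1, a small secreted cytokine-like protein, stood at 28.37, 361.4, 1068 and 1211 CPM with 2, 3, 4 and 5 or 6 genes, and Sele, the cytokine-induced E-selectin, at 1.135, 3.037, 72 and 248 CPM. Cells with 3 genes thus had lower pooled levels of Plvap, Cytl1 and Sele than cells with 4 or more, although they lay inside the rule. Slco2a1, also a venular gene outside the rule, differed less, at 221.7, 270 and 359 CPM with 3, 4 and 5 or 6 genes. Over these steps a UMI was present in 50%, 87.88% and 98.89% of cells for Plvap and in 33.33%, 39.39% and 72.22% for Cytl1. The Sele level with 4 genes came from 12 UMIs in 2 cells.

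Pooled levels of transcripts of other cell types ran the other way. Dcn, the proteoglycan decorin of fibroblasts, stood at 4319 CPM in cells with 3 venous genes and at 420 and 400.1 CPM with 4 and with 5 or 6. Acta2, the actin of smooth muscle, stood at 2348, 174 and 128.8 CPM over the same steps. The share of cells with a UMI did not fall in this way. It was 69.05%, 60.61% and 77.78% for Dcn and 38.1%, 33.33% and 47.78% for Acta2, and 1 cell gave 21.13% of the venous Dcn UMIs and 49.78% of the Acta2 UMIs. The pooled RNA of the cells with 3 venous genes thus goes against a plain venous label in part. Results are given below for all 165 cells and, where they change, for the 123 cells with at least 4 venous genes (38, 24, 28, 9 and 24 per library).

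**Figure D2:**
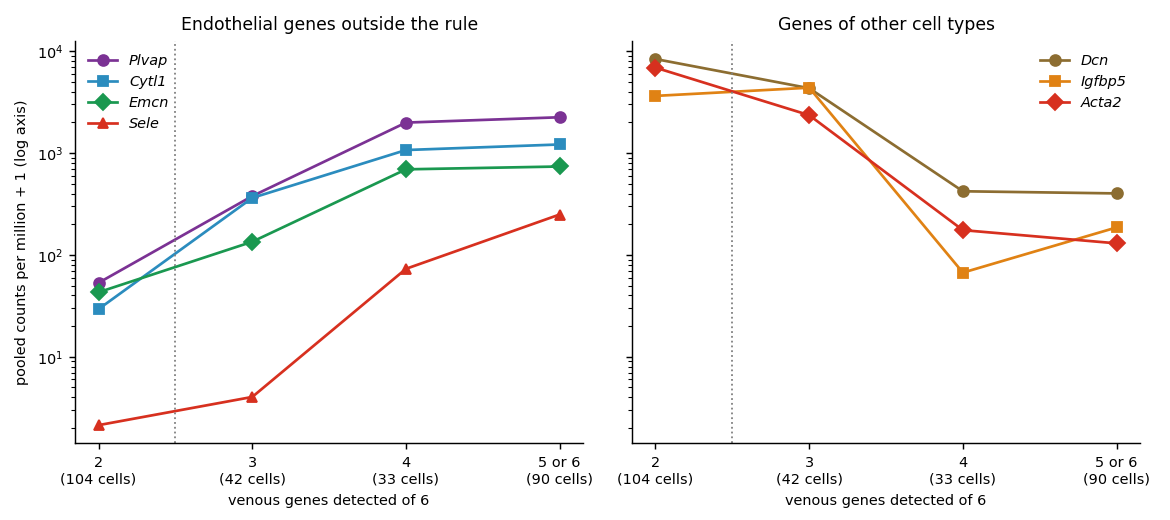
Pooled CPM plus 1 (log axis) against the number of the 6 venous genes detected in a cell, for venular genes and for genes of other cell types. Plvap and Cytl1 are high from 4 genes on, and Dcn, Acta2 and Igfbp5 are high in cells with 2 or 3 genes.

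The summed markers of other cell types also differed between libraries. Over the venous cells, 5 fibro-adipogenic markers summed to 1217, 292.7, 2375, 1566 and 3850 CPM, 7 mural markers to 2002, 117.1, 157, 2891 and 325.3, and 9 myofibre markers to 31.78, 97.57, 261.7, 753 and 833.8. For the myofibre and fibro-adipogenic sums, both frail values lay below all control values, and mural sums overlapped. Schwann markers summed to 2303 CPM in frail 2 and to at most 15.06 elsewhere, haemoglobin genes to 3390 CPM in control 1 and to at most 195.8 elsewhere. Leukocyte markers were at 61.29 to 679 CPM and mesothelial markers at 0. Prox1, the transcription factor that defines lymphatic endothelium, had 12 UMIs in all.

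Venous cells made up 1.512% and 0.6936% of the endothelial barcodes in the frail libraries and 1.206%, 0.3835% and 1.514% in the controls. The Wilson intervals were 1.139 to 2.004, 0.4943 to 0.9724, 0.8762 to 1.658, 0.2195 to 0.6692 and 1.096 to 2.089%. The groups overlapped, with the lowest share in control 2 and with frail 2 below the other controls. The mean share was 1.103 ± 0.5785% (SD, n = 2) in frail and 1.034 ± 0.5844% (SD, n = 3) in control mice, a log2 ratio of 0.09 (exact two-sided permutation test, p = 1.0, smallest possible 0.1). The ratio was 0.23 after every barcode was thinned to 2000 UMIs and shallower ones were left out, and its sign turned to -0.58 without frail 1 and to -0.30 without control 2.

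Venous cells were next set against capillary endothelial cells of the same mice, to show what separates the 2 types beyond the genes of the rule. The 10438 capillary cells had at least 3 of the 4 capillary genes and at most 1 venous and 1 arterial gene. UMI counts were summed per library and cell type, and 4 libraries with at least 20 cells of each type were compared, which leaves out control 2. Because both types were chosen from the same counts, genes of any rule are given no test, and the p-values, from edgeR's quasi-likelihood test with the library as a block and Benjamini-Hochberg adjustment over all genes, describe how steady a difference between the chosen cells was across libraries. In that sense 2380 of 11623 genes (20.5%) passed an adjusted p of 0.05, 1169 higher (10.1%) and 1211 lower (10.4%) in venous cells. The median log2 difference over all genes was -0.08. With at least 4 venous genes per cell, 2281 genes passed. Levels in this comparison are in the order frail 1, frail 2, control 1, control 3.

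Venular identity genes outside the rule were higher in venous cells, 13 of 17 tested with 0 lower and a median log2 difference of 3.37. This list, like the others, was chosen with earlier results of these data known. Its counts, here and against arterial cells, therefore describe the cells and are not independent evidence of their identity. Plvap (chr8:71497765-71511752, minus strand, GRCm38) stood at 1807, 2140, 1606 and 1487 CPM in venous and at 9.681, 18.03, 12.83 and 29.89 CPM in capillary cells. The lowest venous library was far above the highest capillary one (log2 difference 6.78, SE 0.43, adjusted p = 0.001174). Slco2a1, a prostaglandin transporter, stood at 240.6, 409.8, 370.4 and 306.3 CPM against 1.889, 2.135, 1.818 and 9.821 (6.68, SE 0.64, adjusted p = 0.007853). Its call was lost without frail 1, at a log2 difference of 6.59. Ptgs1, the constitutive cyclooxygenase that makes prostaglandin precursors, stood at 324.2 ± 38.75 against 27.1 ± 6.808 CPM (SD, n = 4; log2 difference 3.64). Il6st, the signalling chain shared by receptors of the interleukin-6 family, was at 814.9 ± 166.1 against 80.48 ± 13.51 CPM (SD, n = 4; 3.37). Bst1, an ectoenzyme that makes cyclic ADP-ribose, differed by 7.41, Tll1, a metalloprotease, by 5.28 and Cpe, carboxypeptidase E, by 3.86 on the log2 scale.

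Emcn, the sialomucin endomucin of venous and capillary endothelium, differed less, at 601.2 ± 168.6 against 427.5 ± 99.61 CPM (SD, n = 4; log2 difference 0.52, adjusted p = 0.004395). Ephb4, the ephrin receptor of veins, differed by 0.32 and Nrp2, a semaphorin and VEGF-C co-receptor, by 0.27, and neither passed. In cells with at least 4 venous genes both passed, at 0.69 and 0.58, and Emcn was at 0.91. The call of Emcn in all 165 cells was lost without frail 2, at 0.41, without the count filter, at 0.35, and without the library block, at 0.51. Nrp2 had no steady direction in all 165 cells, with -0.03 without frail 2.

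Several of the largest differences among all genes belonged to no fixed list. Of the genes named next, Chp2 is a member of the venular identity list and Clu of the arterial and Notch list. Cytl1 (chr5:37735519-37739820, plus strand, GRCm38) stood at 1219, 1574, 595.8 and 710.6 CPM in venous cells and at 4.486, 4.111, 1.39 and 2.562 CPM in capillary cells. All 4 venous levels lay far above all capillary levels (log2 difference 8.39, SE 0.19, adjusted p = 4.158e-32), and 92 of the 165 cells carried a Cytl1 UMI. Others were Hs3st1, a heparan sulfate sulfotransferase (6.51), Chp2, a calcineurin-like calcium binder (6.50), the catenin relative Ctnnal1 (5.16), Itgb4, the laminin-binding integrin chain (5.08), and Amigo2, a leucine-rich adhesion protein (5.04). Pdia5, Csf2rb, Rasa4, Myof and Clu were 4.47 to 4.63 higher on the log2 scale, among them Csf2rb, the common chain of the GM-CSF, interleukin-3 and interleukin-5 receptors.

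Genes of leukocyte adhesion moved in both directions, 5 of 18 higher and 7 lower with a median of 0.0. Sele (chr1:164048234-164057677, plus strand, GRCm38) was at 36.32, 169.1, 201.3 and 315.8 CPM in venous and at 0.4722, 0, 0.107 and 0.427 CPM in capillary cells. Frail 1 had the lowest venous level, still above all capillary levels (log2 difference 9.44, SE 0.57, adjusted p = 4.791e-06). The transcript was restricted to part of the set, with a UMI in 40 of 165 venous cells against 8 of 10438 capillary cells. Icam1, the ligand of leukocyte beta-2 integrins, stood at 336, 1307, 599.8 and 685.3 CPM against 110.7, 120.5, 114.9 and 166.8 (2.40, SE 0.30, adjusted p = 0.002597). It was lowest in frail 1 and highest in frail 2, and in no library as low as in capillary cells. Hyal2, a hyaluronidase, was also higher (1.27). Lower were the junctional adhesion molecule Jam2 (-0.96), the tight junction protein Esam (-0.78) and Cd274, the checkpoint ligand PD-L1 (-1.89).

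Inflammatory receptors and targets of the transcription factor NF-kB were mostly higher in venous cells, 15 of 28 with 1 lower and a median of 0.97. The rule itself chose cells by Vcam1 and Lrg1 among others, both described above as genes of inflamed endothelium. Genes that vary together with them can be higher through this choice, also among adhesion genes and against arterial cells. The part of the choice was not tested. Chemokine genes were 8 of 13 higher and 1 lower, with a median of 1.42 that fell to 0.58 in cells with at least 4 venous genes. Il6, interleukin-6, was at 47.67, 32.52, 132.8 and 69.48 CPM in venous and at 2.715, 3.716, 10.48 and 12.67 CPM in capillary cells (log2 difference 3.37, SE 0.33, adjusted p = 8.992e-11). Cxcl10, an interferon-induced attractant of T cells, was at 374.6, 117.1, 624 and 300.0 CPM against 64.46, 25.54, 78.61 and 97.93 (2.40, SE 0.18, adjusted p = 8.26e-12), and Cxcl1, which attracts neutrophils, at 165.7, 58.54, 293.9 and 249.5 against 59.62, 56.84, 89.41 and 132.9 (1.21, SE 0.19, adjusted p = 2.433e-05). Frail 2 was the lowest venous library for all 3 and control 1 the highest. For Cxcl1 the venous level of frail 2 lay within the capillary range, and for Il6 and Cxcl10 the ranges did not overlap. Il6 also stood at a pooled 84.59 CPM in fibro-adipogenic barcodes, against 71.8 CPM in venous cells, and its difference was 3.83 in cells with at least 4 venous genes.

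The promoters of these 3 genes are shown because a common NF-kB motif, read here as GGG, any 3 bases and then TTCC on either strand, occurs in each. The window of Sele was searched too and held 0 matches. The promoters shown are RefSeq windows of 250 bases before and 50 after the gene's start on GRCm38.p6, at chr5:30012864-30013163 on the plus strand (Il6), chr5:90890995-90891294 on the plus strand (Cxcl1) and chr5:92348840-92349139 on the minus strand (Cxcl10), written 5′ to 3′ with motif matches in capitals.
Il6: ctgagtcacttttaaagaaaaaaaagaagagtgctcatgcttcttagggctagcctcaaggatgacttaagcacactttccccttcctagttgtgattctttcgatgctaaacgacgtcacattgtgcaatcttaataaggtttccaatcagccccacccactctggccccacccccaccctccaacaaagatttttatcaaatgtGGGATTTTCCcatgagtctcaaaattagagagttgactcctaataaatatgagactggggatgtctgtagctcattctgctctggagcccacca
Cxcl1: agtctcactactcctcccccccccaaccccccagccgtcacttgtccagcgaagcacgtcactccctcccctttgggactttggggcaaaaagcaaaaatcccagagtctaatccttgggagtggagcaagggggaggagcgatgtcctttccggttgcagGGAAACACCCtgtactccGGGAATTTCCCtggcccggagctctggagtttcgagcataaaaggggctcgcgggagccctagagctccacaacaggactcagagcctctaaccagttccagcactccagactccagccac
Cxcl10: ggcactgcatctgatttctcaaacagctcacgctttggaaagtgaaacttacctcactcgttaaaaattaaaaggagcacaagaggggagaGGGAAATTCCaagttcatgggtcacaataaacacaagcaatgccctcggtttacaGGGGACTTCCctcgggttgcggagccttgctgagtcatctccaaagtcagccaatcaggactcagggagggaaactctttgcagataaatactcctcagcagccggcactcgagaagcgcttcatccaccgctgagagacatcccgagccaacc
The motif begins 44 bases before the start in Il6, at 89, 71 and 70 bases in Cxcl1, where 2 matches overlap, and at 159 and 104 bases in Cxcl10. It occurs in 1825 of 32851 promoter windows of the same length (5.56%). Of the 15 inflammatory genes higher in venous cells 13 had a window and 3 a match (Il6, Nfkbia, Tnfaip3), and over the whole list 7 of 24 genes with a window had one. Of the 8 chemokine genes higher 5 had a window and 3 a match (Csf1, Cxcl1, Cxcl10), and over the whole list 4 of 13. Over all genes with a window the share with a match was 6.31%. The inflammatory genes called higher thus held the motif in no larger share than their whole list. The chemokine genes called higher held it in a larger share than theirs, among few genes. Neither difference was tested. The letters were chosen after these values had been seen, and a match shows a sequence and not a bound site.

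Among the NF-kB targets, the feedback inhibitors Nfkbia (1.10) and Tnfaip3 (1.91) and the atypical inhibitor Nfkbiz (1.82) were higher in venous cells on the log2 scale, as were the receptors Tnfrsf1a for tumour necrosis factor (1.09) and Lifr for leukaemia inhibitory factor (1.35). Ifngr1, the ligand-binding chain of the interferon-gamma receptor, was the lower one (-0.79). Il33, an alarmin stored in nuclei, differed by 2.30. Cxcl12, a chemokine that retains leukocytes and progenitors, was 287 ± 58.97 CPM in venous against 2090 ± 307.8 CPM in capillary cells (SD, n = 4; -2.82, SE 0.17, adjusted p = 4.171e-10). The monocyte attractant Ccl7 was called higher in all cells (2.47), but stood at -1.10 in cells with at least 4 venous genes. Its neighbour Ccl2 did not pass (2.64), drew 71.21% of its venous UMIs from 1 cell, and stood at -1.03 in that set.

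Genes of Weibel-Palade bodies and haemostasis were 16 of 28 higher and 3 lower, with a median of 0.93. Nt5e, the ectoenzyme CD73 that makes adenosine, stood at 97.61, 175.6, 88.56 and 132.6 CPM in venous against 1.299, 1.897, 0.3209 and 5.693 CPM in capillary cells (log2 difference 6.03, SE 0.40, adjusted p = 5.954e-09). The ranges were far apart, with frail 2 highest. Procr, the endothelial protein C receptor, differed by 3.24 and Thbd, thrombomodulin, its partner in the anticoagulant protein C pathway, by 1.03. Fgl2, a prothrombinase, differed by 3.32, Rab27a, a regulator of Weibel-Palade body release, by 2.04 and Edn1, the vasoconstrictor endothelin-1, by 1.55. Angpt2, the TIE2 antagonist kept in the same bodies, had 2 UMIs in the 4 venous libraries and was among the lower genes with Igfbp7 (-0.47), an insulin-like growth factor binding protein of vessels, whose call was lost without control 3 at -0.38.

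**Figure D3:**
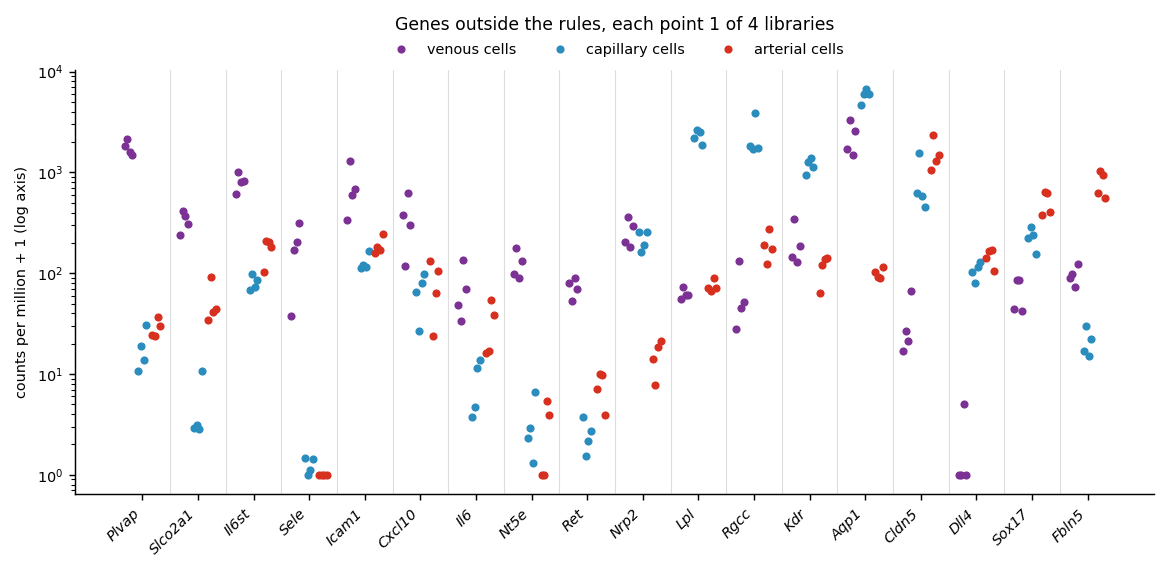
CPM plus 1 (log axis) of 18 genes outside the rules, with each point 1 of the 4 libraries compared, in venous, capillary and arterial cells. Plvap, Slco2a1, Sele, Nt5e and Ret are higher in all 4 venous libraries than in either other type, and Lpl, Rgcc and Kdr are highest in capillary cells.

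Interferon response genes were mostly lower in venous than in capillary cells, 16 of 30 with 3 higher and a median of -0.60. Rsad2, the antiviral enzyme viperin, stood at 18.16, 0, 24.15 and 31.58 CPM in venous and at 371.4, 222.5, 235.3 and 288.9 CPM in capillary cells (log2 difference -3.80, SE 0.28, adjusted p = 3.212e-10). Every venous level was below every capillary level. Bst2, the virus tether tetherin, was lower (-1.12), and Irf1, a transcription factor induced by interferon-gamma (1.01), Ifitm3 (0.79) and Ifit1 (0.84), both antiviral effectors, were higher. With at least 4 venous genes per cell the list split 6 higher against 7 lower with a median of -0.28, and the call of Isg15, a ubiquitin-like modifier (-0.64), was lost, at -0.38. It was lost without frail 1 as well, at -0.45. The MHC class II loading genes H2-DMa (2.83) and H2-DMb1 (3.66) were higher, the first no longer called without frail 1, at 1.94. Cd74, the invariant chain of class II, was at 1964, 182.1, 314 and 871.6 CPM in venous cells and did not pass (2.36, adjusted p = 0.1579), with frail 1 far above the others. It passed without frail 1 (1.64, adjusted p = 4.313e-11) and with DESeq2 (2.29, adjusted p = 4.02e-06). Class I genes were 1 of 11 higher and 4 lower, and reads of these near-identical genes may be shared among them.

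The lipid and water transport genes of capillaries were lower in venous cells, 14 of 15 with 0 higher and a median of -3.02. Lpl (chr8:68880491-68907448, plus strand, GRCm38), lipoprotein lipase, stood at 54.48, 71.55, 60.38 and 60 CPM in venous against 2171, 2614, 2531 and 1887 CPM in capillary cells (-5.18, SE 0.16, adjusted p = 2.47e-27). The venous levels hardly varied and lay far below. Rgcc, a cell cycle regulator of capillaries, was at 27.24, 130.1, 44.28 and 50.53 CPM against 1839, 1700, 3918 and 1744 (-5.28, SE 0.58, adjusted p = 0.01347), a call lost without frail 1 at -5.05. Fabp4, a fatty acid carrier, was less different, at 12950 ± 5181 against 24700 ± 12780 CPM (SD, n = 4; -0.84, SE 0.12, adjusted p = 4.901e-05), and was found in each of the 165 cells. Cd36, the fatty acid translocase, differed by -1.71, Kdr, VEGF receptor 2, by -2.60 and Aqp1, the water channel, by -1.39, a call lost without frail 1 at -1.40.

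Notch and arterial genes were 11 of 18 lower and 6 higher, with a median of -1.01. Dll4, the Notch ligand of arteries and tip cells, had 1 UMI in the 4 venous libraries, a pooled level 118.3-fold lower than in capillary cells (counting interval 21.22 to 4675). Alpl, tissue-nonspecific alkaline phosphatase, also had 1 UMI (79.43-fold lower, 14.24 to 3139), and Slc28a2, a nucleoside transporter, had 3 (66.14-fold lower, 22.63 to 320.9). Slc26a10 and Cdh23, an atypical cadherin, had 0 venous UMIs and were at least 26.59-fold and at least 17.85-fold lower, taking 3 counts over the 4 venous libraries as the limit. Sox17 (-1.85) and Notch4 (-3.49), a transcription factor and a receptor of arterial endothelium, were lower. The higher members included matrix genes, Notch ligands and Clu. Eln, elastin, was at 708.3, 500.8, 603.8 and 385.3 CPM against 17, 46.01, 21.71 and 30.32 (4.37, SE 0.47, adjusted p = 0.007742), Fbln5, an elastic fibre protein, differed by 2.34 and the ligand Dll1 by 2.00. Jag1, another ligand, differed by 1.27, a call lost at 0.18 in cells with at least 4 venous genes.

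Junction and permeability genes were 5 of 11 lower and 0 higher. Cldn5, the main tight junction claudin of endothelium (chr16:18776847-18778262, plus strand, GRCm38), stood at 15.89, 26.02, 20.13 and 66.32 CPM in venous against 620.7, 1554, 588.7 and 455.5 CPM in capillary cells (-4.39, SE 0.64, adjusted p = 0.0253). In venous cells 47.37% of its UMIs came from 1 cell, and control 3 was the highest library. The call was lost without frail 1, without frail 2 or without control 1, at -4.15, -4.04 and -4.27. In cells with at least 4 venous genes the difference was -5.45. Jup, plakoglobin of the adherens junction, differed by -2.82 and S1pr1, a barrier-stabilising receptor for sphingosine phosphate, by -1.28.

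Ret, the receptor tyrosine kinase through which GFRAL signals (chr6:118151745-118197718, minus strand, GRCm38), was at 79.45, 52.04, 88.56 and 69.48 CPM in venous and at 2.715, 0.5534, 1.176 and 1.708 CPM in capillary cells. All venous libraries lay above all capillary libraries (5.64, SE 0.43, adjusted p = 4.499e-14), and 63 of 165 venous cells had a Ret UMI. Ret was also present in fibro-adipogenic barcodes, at a pooled 22.78 CPM against 74.24 CPM in venous cells. Gfral had 0 UMIs in venous cells. Gdf15 had 21 UMIs in 8 cells, and its call (1.37, SE 0.48, adjusted p = 0.03739) was lost under 6 of the alternatives tried, among them leaving out frail 1, frail 2 or control 3, and at 0.62 in cells with at least 4 venous genes.

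**Figure D4:**
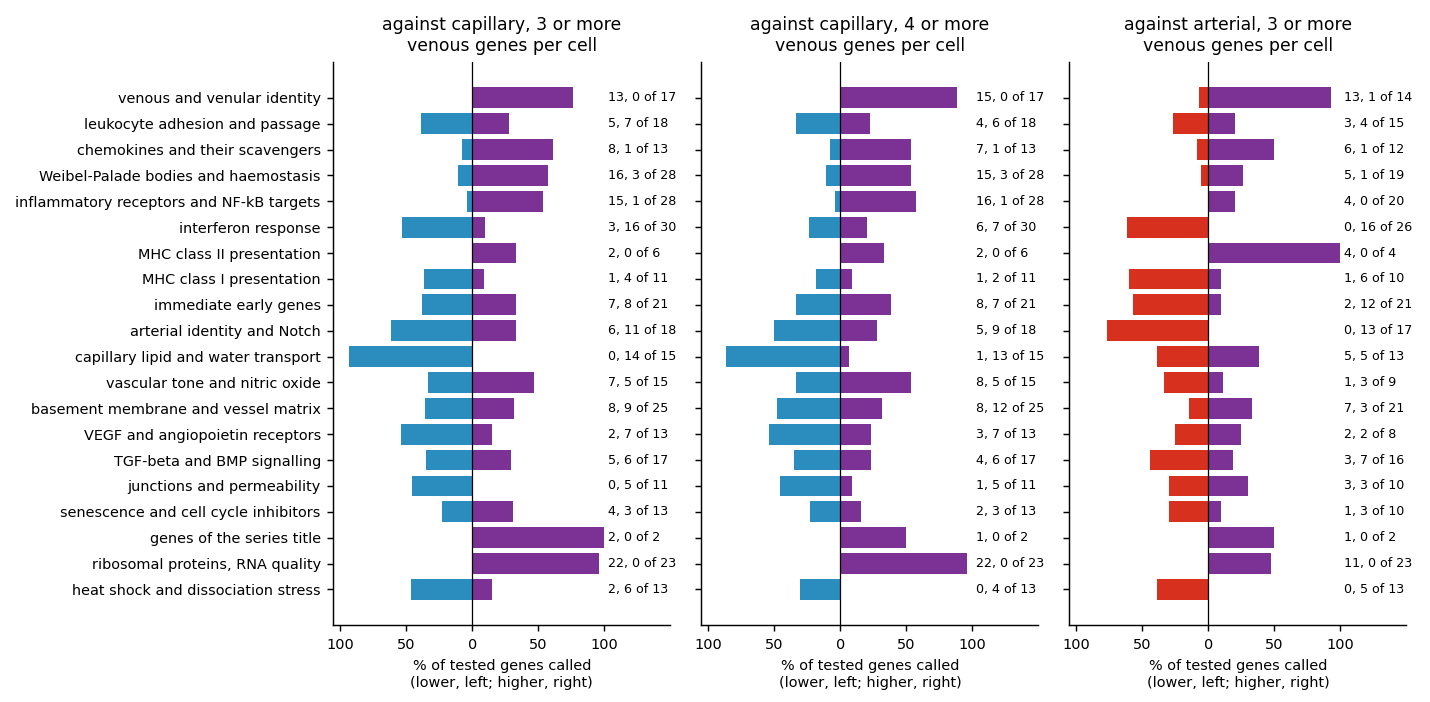
Share of the tested genes of each list called higher (right) or lower (left) in venous cells, against capillary cells for all 165 cells, against capillary cells for cells with at least 4 venous genes, and against arterial cells; the numbers give higher, lower and tested. Venular identity is mostly higher and the capillary lipid list mostly lower than in capillary cells, and the arterial and Notch list is mostly lower than in arterial cells. The lists were chosen with earlier results of these data known.

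Venous cells were then set against 375 arterial cells, which had at least 2 of the 5 arterial genes, in the same 4 libraries and with the same test. Of 4841 genes 973 passed (20.1%), 478 higher (9.87%) and 495 lower (10.2%) in venous cells, with a median of -0.01 over all genes. Without frail 1 there were 618, and DESeq2 called 599. Of the venular identity genes 13 of 14 were higher and 1 lower, with a median of 2.56. The lower one was Vegfc, a lymphatic growth factor (-1.80), which was higher than in capillary cells (2.98).

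Plvap was again far higher in venous cells, since the arterial levels were 23.42, 22.74, 35.5 and 29.01 CPM (log2 difference 6.09, SE 0.18, adjusted p = 5.588e-12). Sele had 0 arterial UMIs and was at least 110-fold higher in venous cells, taking 3 counts over the arterial cells as the limit. Gpr182, a scavenger of chemokines, and Masp1, a protease of the lectin complement pathway, had 0 arterial UMIs too (at least 49.26-fold and at least 46.39-fold higher). Cysltr1, a receptor for cysteinyl leukotrienes, had 134 venous UMIs and 1 arterial UMI, a pooled ratio of 230.2 (counting interval 40.62 to 9161). Lhx6, a LIM homeobox factor, had 110 against 1 (189-fold, 33.22 to 7532). The venous levels of Gpr182 (65.83, 84.56, 80.51 and 75.8 CPM) and Masp1 (79.45, 78.05, 68.44 and 53.69 CPM) varied little between libraries.

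Nrp2 stood at 204.3, 364.3, 181.2 and 293.7 CPM in venous against 13.24, 6.821, 17.75 and 20.31 CPM in arterial cells (4.20, SE 0.29, adjusted p = 4.962e-08). The arterial levels were all far lower, unlike the capillary ones described above. Ephb4 was at 95.34, 175.6, 124.8 and 82.11 CPM against 59.06, 63.66, 62.13 and 49.31 (0.98, SE 0.22, adjusted p = 0.004342), with control 3 nearest to the arterial range. Aqp1 separated the types in the other order than against capillaries, at 1700, 3291, 1498 and 2552 CPM in venous against 101.8, 90.94, 88.76 and 113.1 CPM in arterial cells (4.49). Of the 13 lipid and water transport genes tested 5 were higher and 5 lower than in arterial cells. Emcn (2.39), Ptgs1 (4.77), Slco2a1 (2.73), Il6st (2.31), Calcrl, the receptor chain for CGRP and adrenomedullin (3.64), Igfbp7 (3.01) and Ret (3.45) were higher as well.

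The arterial and Notch list was 13 of 17 lower and 0 higher in venous than in arterial cells, with a median of -2.04. Hey1, a Notch target, was at 13.62, 0, 4.026 and 6.316 CPM in venous against 204.7, 309.2, 128.7 and 153.7 CPM in arterial cells (-4.54, SE 0.36, adjusted p = 1.792e-07). Sox17 (-3.01), Fbln5 (-2.93), Jag1 (-2.31) and Clu (-1.63) were lower than in arterial cells, and the last 3 were higher than in capillary cells. Eln did not pass (0.57, adjusted p = 0.1827). Cldn5 stood at 1063, 2333, 1291 and 1477 CPM in arterial cells (-5.46, SE 0.30, adjusted p = 4.191e-06). St8sia6, a sialyltransferase, had 0 venous UMIs and was at least 80.7-fold lower, and Edn1 stood at 367.6 to 807.7 CPM in arterial against 76.49 to 189.5 CPM in venous cells (-2.23).

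Immune genes were also compared with arterial cells, where 20.1% of all genes tested were called. Chemokine genes were 6 of 12 higher and 1 lower. Inflammatory genes were 4 of 20 higher and 0 lower. Their share called in either direction was no larger than that of all genes, of which 9.87% were higher and 10.2% lower. MHC class II genes were 4 of 4 higher with a median of 1.48, among them Cd74 (1.59, adjusted p = 0.04229). The call of Cd74 was lost without frail 2 or without control 1, at 1.58 and 1.76. Icam1 (1.83), Cxcl10 (2.05), Cxcl9 (3.64), which attracts T cells through the same receptor, and Il6 (1.28) were higher. The calls of Cxcl10 (adjusted p = 0.05849) and Il6 (adjusted p = 0.05711) were lost in edgeR without the library block. Interferon response genes were 16 of 26 lower and 0 higher with a median of -0.82, and immediate early genes were 12 of 21 lower and 2 higher. Heat shock genes, which rise when tissue is dissociated, were 5 of 13 lower and 0 higher, with Hspa1a at -3.30.

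Venous cells with an Ackr1 UMI were set beside those without one as a description, because Ackr1 is a gene of the rule and the split follows the number of rule genes detected. An Ackr1 UMI was present in 13 of the 42 cells with 3 venous genes, in 11 of the 33 with 4 and in 76 of the 90 with 5 or 6. Cells without one were therefore mostly those with 3 or 4 venous genes, and the first of these held the highest pooled Dcn and Acta2. Acta2 stood at 3403, 83.84, 230.6 and 257.8 CPM in cells without an Ackr1 UMI and at 112.2, 28.29, 76.39 and 64.88 CPM in cells with one, in frail 1, frail 2, control 1 and control 3. These 4 libraries had at least 10 cells of each kind, a minimum lowered from 20 after the data had been seen. Cells with an Ackr1 UMI had a median depth of 9675, 6188.5, 7827 and 7007 UMIs and cells without one 9123, 2831, 1786.5 and 7029. This split was not fitted in the cells with at least 4 venous genes alone.

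In the fit with the library as a block 8 of 2445 genes passed (0.327%), 6 higher (0.245%) and 2 lower (0.0818%), and no difference among venous cells is read from them. DESeq2 called 6 genes, 5 of them among the 8. Without frail 1 there were 6 calls, of which 1 was among the 8, and without frail 2, control 1 or control 3 there were 35, 14 and 20. Without the block 0 passed with edgeR, where 111 were at an unadjusted p under 0.05. Rnd1, an atypical small GTPase that loosens the cytoskeleton, stood at 360.7, 386.7, 453.2 and 477.3 CPM in cells with an Ackr1 UMI and at 209.4, 125.8, 76.86 and 99.16 CPM in those without. The ranges did not overlap, no cell gave more than 4.348% of its UMIs, and Rnd1 did not pass with DESeq2 (adjusted p = 0.05023). Cxcl1 was at 232.5, 75.45, 351.4 and 301.2 against 78.53, 20.96, 76.86 and 138.8 CPM, higher in each library although the ranges overlapped, and did not pass with DESeq2 (adjusted p = 0.4782). For Ugdh, Myoc, Cd55, Stc1 and Cald1, which passed too, 1 cell gave 29.67% to 49.51% of the UMIs. The part of depth, of rule genes and of other cell types in these values was not tested.

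Frail and control mice were compared in venous cells summed per library, all 5 libraries. In edgeR 0 of 4427 genes passed an adjusted p of 0.05 (0.0%), and 130 had an unadjusted p under 0.05 (2.94%), 45 higher (1.02%) and 85 lower (1.92%) in frail mice. The smallest adjusted p was 0.7153. DESeq2 called 1 gene, Acta1, lower in frail mice. Genes whose frail and control libraries did not overlap numbered 709 (16.0%), 337 higher (7.61%) and 372 lower (8.4%). With 2 and 3 libraries, groups can lie apart without any difference between them, so being apart is a description here and below. The genes below are those with the smallest p among genes with groups apart, and none passed.

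Cytl1 was at 1219 and 1574 CPM in frail and 595.8, 436.7 and 710.6 CPM in control venous cells (log2 difference 1.23, SE 0.28, unadjusted p = 0.001202 and adjusted p = 0.7602 in edgeR). Both frail levels lay above the control levels. Cavin2, a coat protein of caveolae, was at 2070 and 1789 against 1220, 1295 and 1004 CPM (0.73). Cyp4b1, a cytochrome P450, was at 122.6 and 169.1 against 36.23, 45.18 and 75.8 CPM (1.34), and Dhh, the desert hedgehog ligand, at 61.29 and 65.05 against 16.1, 30.12 and 18.95 CPM (1.67). Dhh is also a product of Schwann cells, whose markers summed to 9.08 CPM in frail 1 and 2303 CPM in frail 2, and their part in the Dhh values was not tested. Cracr2b, Dctn6, Bag5, Emd, Hnrnpll and Resf1 completed the 10 higher genes, with log2 differences of 1.03 to 1.52.

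Among genes lower in frail mice, Errfi1, a feedback inhibitor of the EGF receptor, was at 65.83 and 39.03 against 181.2, 301.2 and 214.8 CPM (-2.0, SE 0.40, adjusted p = 0.7153 in edgeR). Both frail levels lay below the control levels. Rcan1, a calcineurin inhibitor induced by VEGF and calcium, was at 113.5 and 104.1 against 354.3, 256 and 259 CPM (-1.41). Nfkbiz was at 338.2 and 494.3 against 1091, 783.1 and 814.8 CPM (-1.13). In cells with at least 4 venous genes these 3 stood at -1.95, -1.65 and -1.36, and none passed there. Col6a2, a collagen VI chain of fibroblasts, differed by -2.32, and the 4 fibro-adipogenic markers tested had a median of -1.48. Their part in the lower genes was not tested.

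The other lower genes were myofibre transcripts. Acta1, skeletal muscle actin, was at 9.08 and 19.51 against 84.54, 271.1 and 240 CPM in venous cells (-3.91), and at 28.92 and 107 against 1110, 1423 and 655.2 CPM in capillary cells (-4.03). The order of groups was the same in both endothelial types. In cells with at least 4 venous genes Acta1 stood at -2.78. Ckm, Tnnc2, Myl1, Tnnt3 and Tnni2, all of the contractile or energy machinery of fibres, differed by -2.49 to -3.73 in venous cells, where 1 cell gave 39.66% to 57.89% of their UMIs.

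**Figure D5:**
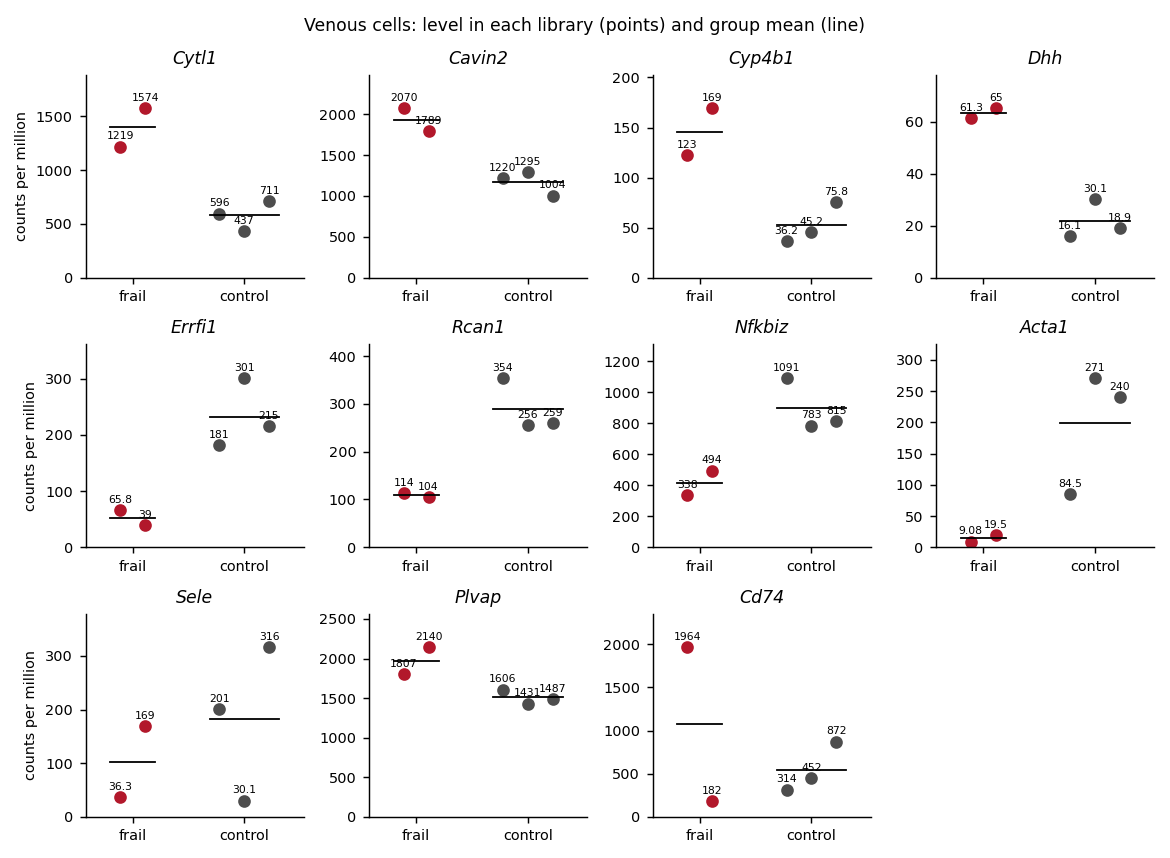
CPM of 11 genes in venous cells, with each point 1 library (2 frail, 3 control) and lines at group means; every vertical axis starts at 0. Cytl1, Cavin2, Cyp4b1, Dhh and Plvap lie higher and Errfi1, Rcan1, Nfkbiz and Acta1 lower in both frail libraries, whereas Sele and Cd74 overlap between the groups.

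The genes that mark venous cells showed no called difference between the groups. Plvap was at 1807 and 2140 against 1606, 1431 and 1487 CPM (0.38), Ret at 79.45 and 52.04 against 88.56, 60.24 and 69.48 CPM (-0.13), and Sele at 36.32 and 169.1 against 201.3, 30.12 and 315.8 CPM (-1.18). Sele and Ret overlapped, and for Plvap both frail levels were above the controls. Il6 was at 47.67 and 32.52 against 132.8, 105.4 and 69.48 CPM (-1.24, unadjusted p = 0.01537 in edgeR), with both frail libraries lowest. Icam1 (0.45) and Cd74 (0.97) had no steady direction, since they stood at -0.72 without frail 2 and at -1.64 without frail 1. Gja1, the gap junction protein connexin 43 (-1.60), and Col15a1, a basement membrane collagen (-1.25), had groups apart and were lower.

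Lists were summarised by the number of tested members on each side of 0, next to 2144 above and 2228 below among all 4427 genes. MHC class II genes were 5 of 5 above 0 (median 0.78) and class I genes 10 of 10 (median 0.48), and neither list had a gene that passed. The class II levels rested largely on frail 1, where Cd74 stood at 1964 CPM against 182.1 CPM in frail 2. Junction and permeability genes were 9 of 9 below 0 (median -0.30), inflammatory genes 12 of 19 below, senescence genes 8 of 10 below, and venular identity genes 11 of 15 above (median 0.28). With at least 4 venous genes the senescence genes were 4 above and 4 below (median -0.12, against -0.44 in all 165 cells), so they had no direction there. Members of a list vary together within a library, so these counts describe 5 libraries and are not independent evidence.

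Whether the frail difference itself differed between venous and capillary cells was tested with limma on the venous minus capillary log2 CPM of each library. Of 13201 genes 0 passed (0.0%), 289 had an unadjusted p under 0.05 (2.19%), and the smallest adjusted p was 0.9789. The median of the difference over all genes was 0.19. Errfi1 was among the 5 genes with the smallest p, with a frail difference 1.64 lower in venous than in capillary cells (-1.64, SE 0.36), where it stood at 86.18 and 81.59 against 103.8, 124.7 and 105.2 CPM. The others were N4bp3 (-4.29), Plcb1 (-1.83), Cyp7b1 (5.73) and Dop1a (-1.99). Cyp7b1 had a mean log2 CPM of 0.61 over the venous and capillary sums (SE 1.4), so its value rests on few counts.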

How the data were processed

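The authors deposited UMI counts for each gene in each barcode. The file headers name Cell Ranger 7.0.0, and Seurat 4.1.2 and the build GRCm38 appear in the submitters' processing notes. Which annotation and barcode filter were applied is not given in the sources used here. Of 55357 gene identifiers, 94.08% were matched to GENCODE vM21 for positions. The members and gene lists were chosen with earlier results of these data known.

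Counts were summed per library and cell type and tested with edgeR 4.0.16 (robust quasi-likelihood test, TMM, filterByExpr; Benjamini-Hochberg threshold 0.05), with the library as a block between cell types and a minimum of 20 cells. DESeq2 1.42.0 was the alternative. Differences of the frail effect used limma 3.58.1 on log2 CPM (prior count 2). Shares used an exact permutation test over libraries, and scipy 1.17.1 gave the Wilson and counting intervals. Barcodes called by Scrublet (scanpy 1.11.5) at 0.4% per 1000 barcodes stayed in, and removing them was an alternative. Between cell types, named genes are the 15 largest folds in each direction that were called, had one direction in every library and an average log2 CPM of at least 5; between frail and control, where none passed, they are the 10 smallest p in each direction with groups apart. The Ackr1 split names up to 8 each way, and the difference of effects the 5 smallest p. List members were added. Other alternatives were RLE factors, no count filter, each library left out, a replicate block, at least 4 venous genes, a 5% mitochondrial limit, and thinning to 2000 UMIs. Tests were checked on simulated counts. R 4.3.3 and Python 3.11.15 were used. Replicates are separate mice per the labels' series text. Some genes that the naming rule or the marker lists selected are not reported here.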

Additional observations from a re-analysis of the deposited data

How the results depend on the processing

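Counts of called genes stayed within 1.5 times for venous against capillary cells under all alternatives run (1772 without the library block to 2628 without the count filter; 1837 to 2183 with 1 library left out). Against arterial cells DESeq2 called 599 genes, 584 of them among the 973, and leaving out 1 library gave 618 to 902. For frail against control, where edgeR called 0, DESeq2 called 1 gene, dropping the count filter gave 35, leaving out 1 library gave 0 to 6, with 6 without frail 1 (among them the myelin gene Mbp), and the replicate block gave 4. Whether the replicate numbers pair the mice could not be decided, so this block is reported here alone. Deviations from the group means correlated at 0.05 and 0.06 between same-numbered libraries and at -0.06 to 0.03 between others. With 2 frail libraries these deviations mirror each other, so the correlations are not separate values. The Ackr1 split, whose minimum of 10 cells was chosen after seeing the data, gave 8 calls, 0 without the replicate block and 6 to 35 with 1 library left out. The difference of frail effects gave 0 calls throughout. The log2 ratio of venous shares ran from -0.58 to 0.55 with 1 library left out, from 0.08 to 0.53 under the other settings. The cause of these changes was not tested. Single genes that turned direction were Nrp2 (-0.03 without frail 2, up to 0.44 with another library left out) and Meox2 (-0.01 without control 3, up to 0.30) against capillary cells, Ccl7 (-1.10) and Ccl2 (-1.03) with at least 4 venous genes, and, in the frail comparison, Icam1 (-0.72 without frail 2 to 1.14 without frail 1), Ret (-0.56 without frail 1 to 0.15 without frail 2) and Cd74 (-1.64 without frail 1 to 1.88 without frail 2). Without the library block the calls of Emcn, Cd274, Cxcl1, Fabp4, Cd36, Bst2, Ifit1, Isg15, Ifitm3, H2-D1, Col15a1 and Igfbp7 against capillary and of Il6, Cxcl10, Cd74, H2-Eb1, Kdr, Klf2 and Ifit3 against arterial cells were lost in the same direction. Of the other values of named genes, 1055 against capillary and 360 against arterial cells kept direction and side of the threshold. With 12 venous cells in control 2 and 66404 UMIs, low genes of that library rest on few counts.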

Other observations

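Venous cells carried more ribosomal protein transcripts than capillary cells, with 22 of 23 genes of the list higher, 0 lower and a median log2 difference of 0.94 (0.97 in cells with at least 4 venous genes, at a median depth of 6892 UMIs for all 165 cells against 3634 in capillary cells). Reads of these genes can be shared with near-identical copies. Against arterial cells 11 of 23 were higher and 0 lower. Mitochondrial UMIs were 3.023% to 4.654% in venous and 4.447% to 5.907% in capillary cells, lower in venous cells of each library.

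Genes of vascular tone were 7 of 15 higher and 5 lower than in capillary cells. For this list and those below, 10.1% of all genes tested were higher and 10.4% lower. Calcrl, the receptor chain for the dilators CGRP and adrenomedullin, stood at 420, 273.2, 253.6 and 246.3 CPM in venous against 85.24, 68.23, 103.8 and 120 CPM in capillary cells (order frail 1, frail 2, control 1, control 3; log2 difference 1.70, SE 0.19, adjusted p = 2.809e-07 in edgeR), so the ranges lay apart. Ace, the angiotensin-converting enzyme, differed by 1.63 and Nos3, endothelial nitric oxide synthase, by 0.75, a call lost without frail 1 at 0.44. Among basement membrane and matrix genes 8 of 25 were higher and 9 lower. Col4a1, the common chain of collagen IV, was 2.32 lower on the log2 scale (-2.32) and Col15a1 differed by 1.04. In the TGF-beta and BMP list 5 of 17 were higher and 6 lower, with the ligands in opposite directions, Bmp4 at 1.77 and Bmp6 at -3.30. VEGF and angiopoietin genes were 7 of 13 lower and 2 higher, among them Flt1, VEGF receptor 1 (-1.37), and Vegfc (2.98).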
